A study of Mus musculus with 6 samples.

Results

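The nuclear genes of oxidative phosphorylation were read in RNA from mononuclear cells of mouse skeletal muscle. They were taken by symbol from a table of 17030 genes: every row whose symbol starts with Nduf (Ndufa4l2 left out), Sdha, Sdhb, Sdhc, Sdhd, Uqcr, Cox and a digit, or Atp5, together with Cycs and Cyc1. This gave 107 genes, of which 39 were placed in complex I, 4 in complex II, 9 in complex III, 18 in complex IV and 16 in complex V. Cycs, the gene of the mobile carrier cytochrome c, stood on its own, and the remaining 20 were assembly factors. Ndufa4 was placed with complex IV, to which its protein belongs. Some rows are copies of a subunit gene rather than the gene itself, and they were kept and are named as copies.

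All 6 libraries came from male C57BL/B6 mice bearing the Lewis lung carcinoma (LLC), a transplanted tumour used to study muscle wasting. Every mouse carried floxed alleles of IKKb (IKKb fl/fl), the kinase that activates NF-kB, and received tamoxifen on days 10 to 14 after injection of the tumour cells. The 3 Pax7-CreERT libraries carried in addition a tamoxifen-activated Cre under Pax7, a gene of satellite cells (the muscle stem cells), and the 3 control libraries carried the floxed alleles without Cre. Since no group had Cre without floxed alleles, the deletion and the presence of Cre cannot be told apart. The labels give no age and no batch and do not say that each library is a separate mouse, so p-values measure the spread between these libraries.

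Oxidative phosphorylation makes ATP at the inner mitochondrial membrane. Complex I takes electrons from NADH and complex II from succinate, and both pass them through ubiquinone to complex III, cytochrome c and complex IV, which reduces oxygen. Complexes I, III and IV pump protons, and complex V uses the gradient to make ATP. Most subunits are encoded in the nucleus, as studied here, and a few of the core subunits in mitochondrial DNA. The table held 0 mitochondrially encoded genes. Muscle fibres are rich in these complexes and use muscle isoforms of several complex IV subunits, whereas the mononuclear fraction holds mainly the cells between the fibres.

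Levels are in CPM (reads of the gene in every 1000000 reads assigned to genes), and the libraries held an estimated 4054000 to 13355000 such reads. At 10 CPM the counting error alone was therefore 8.65% to 15.7%. Control 3 stood apart from the other libraries, at 51.6 on the first principal component against -16.98 to 0.20 for the other 5, and haemoglobin genes took 12.6% of its reads against 1.84% to 4.83%. Endothelial markers (4 of 4 in the table, 3522 to 4703 CPM summed) and pericyte and smooth muscle markers (7 of 7, 6464 to 10636 CPM) were abundant in every library, while the 5 satellite cell markers summed to 145 to 201 CPM. Ikbkb, the gene of IKKb, measured 51.4, 48.4 and 52.7 CPM in the Pax7-CreERT libraries, against 51.3, 57.4 and 48.8 CPM in the control libraries. The libraries overlapped, with a log2 fold change of -0.04 (95% interval -0.33 to 0.24, limma adjusted p = 0.970), so that the level of the gene in these mixed cells does not check the genotype. In such bulk samples, fewer cells of a type and less RNA per cell cannot be told apart.

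The subunits of a complex are joined in fixed proportions in the protein, but their transcripts were listed at very different levels. Levels between genes were compared as the mean CPM of the 6 libraries per kb of the main GENCODE transcript, which 106 of the 107 genes had. In complex I they ran from 1.17 CPM per kb for the row listed as Ndufb1 to 150.6 CPM per kb for Ndufa1, an accessory subunit, with a median of 12.5. The Ndufb1 row was matched by position to a GENCODE gene of a non-coding type, Ndufb1-ps, whose length was used. In complex IV they ran from 0.486 for Cox7a1, the muscle isoform of subunit 7a, to 142.7 for Cox8a, the ubiquitous isoform of subunit 8, with a median of 12.7 CPM per kb. Complex V ran from 0.756 for Atp5g1, one of the genes of the ring subunit c, to 100.8 for Atp5b, the catalytic beta subunit, and its median was 9.56 CPM per kb. The length used for Atp5g1, 4715 bases, exceeds the whole span of its row (chr11:96072793-96075694), so its level per kb is not reliable. By mean CPM without division by length, the lowest gene of complex V was Atp5k, at 0.824, while Atp5g1 stood at 3.57. Complex III ran from 4.82 for the core protein gene Uqcrc1 to 117.8 for the small subunit gene Uqcrb, with a median of 20.54 CPM per kb. The range was narrower in complex II, from 2.97 for Sdhb, the iron-sulfur subunit, to 26.7 for Sdhc, a membrane anchor, with a median of 23.4 CPM per kb. Assembly factors had the lowest median, at 4.42 CPM per kb, and their highest member was Cox17, a copper chaperone of complex IV, at 17.2. The length used for the assembly factor Sdhaf1, 2490 bases, also exceeds the whole span of its row (chr7:30321409-30322375). Its level of 9.82 CPM per kb and its rank below Cox17 are therefore not reliable.

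**Figure D1:**
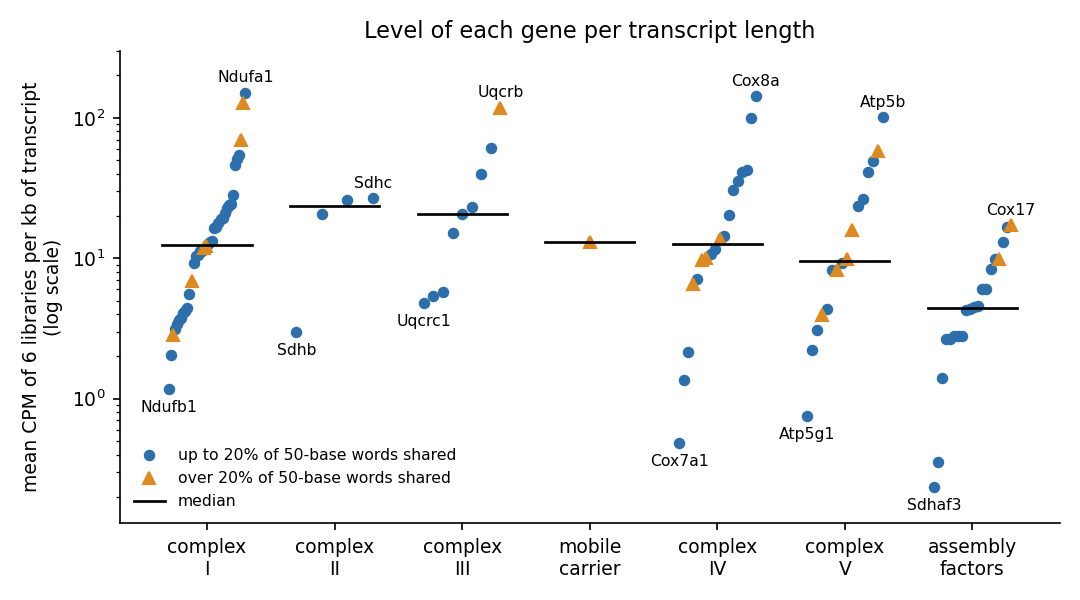
Mean CPM of the 6 libraries per kb of transcript, on a log scale, for the 106 genes with a transcript length, grouped by complex. Points are genes in order of level, triangles are genes that share over 20% of their 50-base words with other genes, and lines are medians. The medians lie between 4.42 for the assembly factors and 23.4 for complex II, while complex IV alone spans 0.486 to 142.7 CPM per kb.

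Many of these genes have processed copies elsewhere in the genome, and reads from identical stretches cannot be placed on 1 gene. To measure sharing of any kind, each main transcript was cut into overlapping words of 50 bases, and a word counted as shared when it occurred in a transcript of another gene. That other gene need not be a processed copy. Cox19 shared words with 266 genes, of which 5 were pseudogenes, and Cox5b with 1 gene and 0 pseudogenes. Of the 106 genes, 60 shared no word, 27 shared up to 20% of their words and 19 shared more. The median level was 9.53 CPM per kb for the 60 genes without a shared word, 16.4 for the 27 genes and 11.8 for the 19 genes. Across the 106 genes the level per kb and the shared percentage had a Spearman rho of 0.17, as a description, since the levels of all genes come from the same 6 libraries.

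The clearest case is Ndufb4, the gene of an accessory subunit of complex I (chr16:37647602-37654368, minus strand, mm10), and its copy Ndufb4c (chr15:73809458-73809933, minus strand). All 387 coding bases of Ndufb4 occur unbroken in the Ndufb4c transcript, and 341 of the 341 words of Ndufb4c are found in Ndufb4. The stretch below shows this identity. It holds the opening 60 coding bases of the GENCODE transcript of Ndufb4, all of which are identical in the copy.
Ndufb4 and Ndufb4c, coding bases 1 to 60: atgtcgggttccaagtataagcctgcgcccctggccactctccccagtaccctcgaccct

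Ndufb4c was nonetheless listed at 44.4, 54.3 and 46.6 CPM in the Pax7-CreERT libraries, against 49.6, 50.1 and 54.5 CPM in the control libraries. Ndufb4 itself was listed at 13.2, 13.1 and 10.6 CPM in the Pax7-CreERT libraries, against 13.7, 12.9 and 8.14 CPM in the control libraries. Per kb the copy stood at 128.0 CPM and the gene at 12.3 CPM, in a pair whose coding bases do not tell them apart. The division of reads between these rows is uncertain in every library, and neither row passed between genotypes (log2 fold changes -0.09 and 0.10, limma adjusted p = 0.942 and 0.957).

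A second copy, Ndufs5-ps (chr16:42955580-42956079, plus strand), was listed at 55.7, 68.4 and 47.8 CPM in the Pax7-CreERT libraries, against 56.4, 47.9 and 60.7 CPM in the control libraries. Its name marks it as a pseudogene of Ndufs5, and no GENCODE transcript matched it. Ndufs5 itself had no row among the 107 genes, although the rule would have taken it. Cox7c-ps1 (chr17:25901808-25902152, plus strand) shares 180 of its 323 words with Cox7c, a small subunit of complex IV, and the longest identical run within the Cox7c coding sequence is 82 bases. The first 60 bases of that run are given to show how much of a short read the copy can match.
Cox7c and Cox7c-ps1, from coding base 108: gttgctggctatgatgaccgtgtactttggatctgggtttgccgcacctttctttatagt

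Cox7c-ps1 measured 4.21, 2.70 and 1.63 CPM in the Pax7-CreERT libraries, against 2.67, 1.89 and 1.48 CPM in the control libraries, and Cox7c 7.36, 7.41 and 6.92 CPM against 8.36, 5.93 and 8.63 CPM. A further copy, Ndufa11b, shares 39 of 375 words with Ndufa11. Among the other genes, Cox16 (88.7% of words shared), Atp5g2 (87.4%), Atp5l (68.5%), Cox17 (52.7%) and Atp5h (50.5%) had the largest shared parts. Cox16 and Cox17 share them with genes that overlap them on the same strand, and the others with copies. Uqcrb, the gene of complex III with the highest level per kb, shared 43.2% of its words with 4 genes, all 4 of them pseudogenes. The levels of all these genes are uncertain, since reads from the shared parts could be split.

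Between the genotypes, 0 of the 101 genes that could be tested passed at an adjusted p under 0.05, and the lowest adjusted p was 0.891. The test was limma on log2(CPM + 1) over the 14763 genes that reached 1 CPM in 3 or more libraries, with Benjamini-Hochberg adjustment, and 1 gene (0.00677%) passed in the whole table. The log2 fold change, Pax7-CreERT minus control, was above 0 for 74 of the 101 genes (73.3%), with a median of 0.09. Over all genes tested it was above 0 for 68.0%, also with a median of 0.09. The 101 genes therefore lay where the table as a whole lay. With TMM factors, which set the typical gene equal between libraries, 50 of the 101 genes were above 0, against 49.9% of all genes, and the medians were -0.0014 and -0.00039.

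At an unadjusted p under 0.05, 4 of the 101 genes were higher (3.96%, against 4.58% of all genes tested) and 0 were lower (against 0.942%). The 4 were Ndufb10, Ndufa10, Ndufa11 and Sdha. With TMM factors 1 of the 101, Ndufb10, was higher at that p (0.990%, against 2.44% of all genes) and 0 were lower (against 2.11%). All 3 Pax7-CreERT libraries lay above all 3 control libraries for 13 genes (12.9%, against 8.69% of all genes), and 0 genes lay wholly below (against 2.28%). After TMM scaling, the counts without overlap were 6 genes above (5.94%, against 4.81%) and 4 below (3.96%, against 5.09%). The 6 were Cox5a, Cox8b, Ndufa10, Ndufa11, Ndufb10 and Ndufb6, and the 4 were Cox18, Cox7a2l, Ndufa5 and Ndufc2. Without control 3, the median of the 101 genes was 0.06 and that of all genes 0.04, and 1 of the 101 was higher (Ndufb10) and 1 lower (Atp5mpl) at an unadjusted p under 0.05, against 4.94% and 1.56% of all genes.

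**Figure D2:**
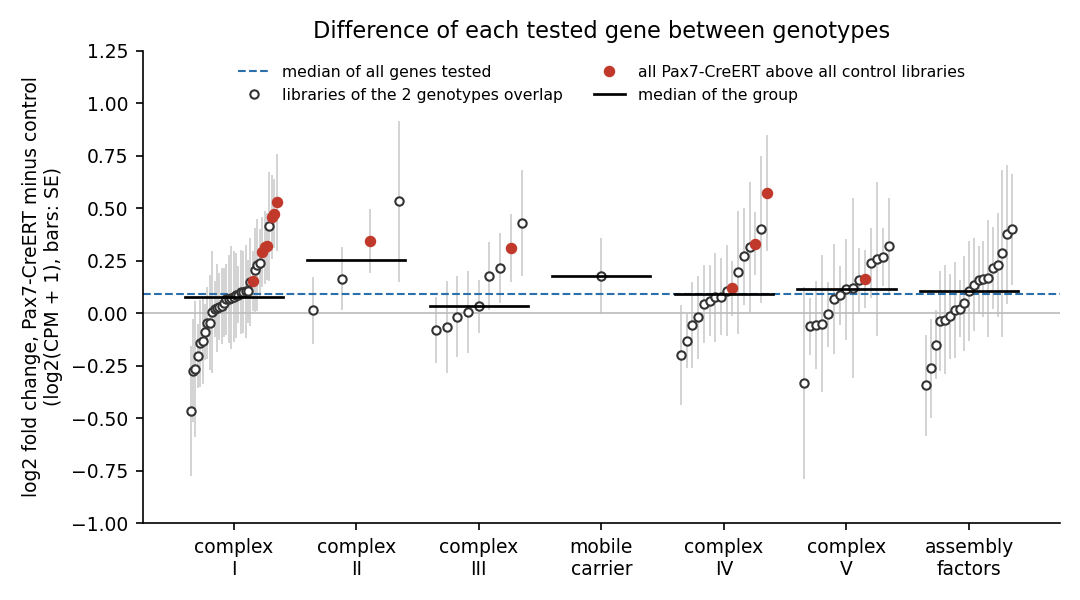
Log2 fold change of each of the 101 tested genes, Pax7-CreERT minus control on log2(CPM + 1), grouped by complex, with SE bars. Filled points are the 13 genes whose Pax7-CreERT libraries all lie above the control libraries, lines are group medians and the dashed line is the median of all 14763 genes. The medians of complexes I, III, IV and V and of the assembly factors run from 0.03 to 0.11, around the dashed line, and that of complex II is 0.25.

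Complex I takes electrons from NADH, and the nuclear part of its catalytic core consists of 7 subunits. Of these 7 genes, 6 had a log2 fold change above 0, with a median of 0.10, and 0 passed. Ndufv1, which binds NADH and flavin (chr19:4007499-4012755, minus strand), measured 22.7, 24.7 and 22.8 CPM in the Pax7-CreERT libraries, against 21.1, 22.1 and 19.7 CPM in the control libraries. The groups did not overlap, with a log2 fold change of 0.15 ± 0.14 (SE; limma adjusted p = 0.911).

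Ndufs1, the largest iron-sulfur subunit, measured 32.6, 30.1 and 28.0 CPM in the Pax7-CreERT libraries, against 30.4, 24.3 and 22.1 CPM in the control libraries. Its log2 fold change was 0.24 (SE 0.16), and control 1 lay above the lower 2 of the Pax7-CreERT libraries. Another 4 core genes had log2 fold changes closer to 0 than Ndufs1. The iron-sulfur subunit gene Ndufv2 averaged 6.42 ± 0.473 CPM in Pax7-CreERT and 5.94 ± 0.809 CPM in control libraries (SD, n = 3 each). For Ndufs7, which carries the last iron-sulfur cluster before quinone, the means were 10.2 ± 0.546 and 9.52 ± 1.92 CPM in the same order of genotypes. Ndufs8, another iron-sulfur subunit, averaged 9.19 ± 0.613 CPM in Pax7-CreERT and 8.98 ± 0.963 CPM in control libraries. Ndufs3, a subunit of the peripheral arm, was the core gene with a value below 0, at -0.13 (SE 0.21), with means of 6.79 ± 0.408 CPM in Pax7-CreERT and 7.62 ± 1.47 CPM in control libraries.

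The other 32 rows of complex I hold the accessory genes, the copies Ndufb4c, Ndufa11b and Ndufs5-ps, and the Ndufb1 row. Of these 32 rows, 30 were tested, and 22 of the 30 had a log2 fold change above 0, with a median of 0.07. Ndufb10, a subunit of the membrane arm (chr17:24722061-24724423, minus strand), measured 17.03, 16.1 and 16.3 CPM in the Pax7-CreERT libraries, against 12.0, 10.2 and 12.6 CPM in the control libraries. The groups were clear of each other, and the values rested on 80 to 215 reads in Pax7-CreERT and 51 to 76 reads in control libraries. The log2 fold change was 0.47 (SE 0.16, 95% interval 0.11 to 0.84), with an unadjusted p of 0.0165 in limma and an adjusted p of 0.891. An exact 2-sided permutation test gave p = 0.1, the smallest that 3 libraries against 3 can give.

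Ndufa10, an accessory subunit (chr1:92439719-92473758, minus strand), measured 9.57, 9.14 and 8.55 CPM in the Pax7-CreERT libraries, against 6.69, 7.54 and 4.19 CPM in the control libraries. Control 3 was the lowest library, and the log2 fold change was 0.53 ± 0.23 (SE; limma adjusted p = 0.896). Ndufa11, a membrane arm subunit (chr17:56717762-56724248, plus strand), measured 6.73, 6.96 and 8.14 CPM in the Pax7-CreERT libraries, against 5.68, 4.72 and 4.69 CPM in the control libraries. Its log2 fold change was 0.46 ± 0.20 (SE; limma adjusted p = 0.896). A further 2 accessory genes did not overlap between genotypes. Ndufb6 averaged 14.0 ± 1.45 CPM in Pax7-CreERT and 11.0 ± 1.11 CPM in control libraries, and Ndufa12 averaged 14.6 ± 0.959 and 11.7 ± 1.13 CPM in the same order (SD, n = 3 each).

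On the other side, Ndufa11b, the copy of Ndufa11, measured 2.21, 2.25 and 1.02 CPM in the Pax7-CreERT libraries, against 3.51, 1.75 and 3.45 CPM in the control libraries. The groups overlapped, and its log2 fold change of -0.47 (SE 0.31) had the opposite sign to that of Ndufa11. Ndufc2, a membrane arm subunit, measured 29.2, 35.7 and 31.95 CPM in the Pax7-CreERT libraries, against 35.6, 43.2 and 33.6 CPM in the control libraries, with a log2 fold change of -0.20 (SE 0.15). Ndufa5, a subunit of the peripheral arm, averaged 3.18 ± 0.905 CPM in Pax7-CreERT and 3.97 ± 0.246 CPM in control libraries, with a log2 fold change of -0.27 (SE 0.24). Ndufa1, the gene of the complex with the highest level per kb, measured 63.4, 67.0 and 64.9 CPM in the Pax7-CreERT libraries, against 57.2, 52.4 and 73.8 CPM in the control libraries, where control 3 was the highest library of all.

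Complex II, or succinate dehydrogenase, links the citric acid cycle to the chain, and all its subunits are nuclear. All 4 genes had a log2 fold change above 0, the median was 0.25, and 0 passed. Sdha, the flavoprotein that oxidises succinate (chr13:74322255-74350240, minus strand), measured 70.5, 70.7 and 59.6 CPM in the Pax7-CreERT libraries, against 59.5, 55.4 and 43.7 CPM in the control libraries. The groups were separated by 59.6 against 59.5 CPM in the nearest libraries. The means were 67.0 ± 6.34 and 52.8 ± 8.22 CPM, Pax7-CreERT and control (SD, n = 3 each), and the log2 fold change was 0.34 (SE 0.15, 95% interval 0.0022 to 0.68, adjusted p = 0.896).

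Sdhb, which carries the iron-sulfur clusters (chr4:140961271-140979198, plus strand), measured 3.78, 2.995 and 5.29 CPM in the Pax7-CreERT libraries, against 2.34, 4.98 and 0.987 CPM in the control libraries. The lowest value rests on 4 reads of control 3, the groups overlapped, and the log2 fold change of 0.53 had an SE of 0.38. Sdhc, a membrane anchor, measured 93.6, 81.9 and 92.4 CPM in the Pax7-CreERT libraries, against 86.4, 64.8 and 89.3 CPM in the control libraries (log2 fold change 0.17, SE 0.15). For Sdhd, the other anchor, the means were 32.4 ± 5.55 CPM in Pax7-CreERT and 31.8 ± 2.40 CPM in control libraries. With TMM factors the median of complex II was 0.16.

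Complex III passes electrons from ubiquinol to cytochrome c. Of its 9 genes, 6 had a log2 fold change above 0, with a median of 0.03 (-0.06 with TMM factors), and 0 passed. Uqcrc2, a core protein (chr7:120635189-120659523, plus strand), measured 30.3, 34.7 and 30.7 CPM in the Pax7-CreERT libraries, against 30.1, 25.8 and 21.3 CPM in the control libraries. The nearest libraries, 30.3 and 30.1 CPM, almost met, and the log2 fold change was 0.31 ± 0.16 (SE; limma adjusted p = 0.896). Uqcrc1, the other core protein, had a log2 fold change of -0.06 (SE 0.22), with 7.25, 7.49 and 8.34 CPM in the Pax7-CreERT libraries, against 8.19, 10.4 and 6.17 CPM in the control libraries.

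The catalytic subunits had smaller log2 fold changes than Uqcrc2. Uqcrfs1, the Rieske iron-sulfur protein, measured 30.3, 35.1 and 25.2 CPM in the Pax7-CreERT libraries, against 28.8, 23.2 and 25.4 CPM in the control libraries (log2 fold change 0.21, SE 0.17). Cyc1, cytochrome c1, averaged 8.77 ± 1.48 CPM in Pax7-CreERT and 8.68 ± 0.581 CPM in control libraries. Uqcrb, with the highest level per kb in the complex, averaged 63.7 ± 3.40 and 62.3 ± 4.42 CPM in the same order. Cycs, cytochrome c (chr6:50562563-50566569, minus strand), measured 43.0, 46.3 and 40.5 CPM in the Pax7-CreERT libraries, against 45.6, 42.2 and 28.6 CPM in the control libraries. Control 3 stood below the other 5 libraries, and without it the log2 fold change was -0.02, against 0.18 with all libraries.

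Complex IV transfers electrons from cytochrome c to oxygen. Of its 18 genes, 16 were tested, 12 had a log2 fold change above 0, the median was 0.09, and 0 passed. Cox5a, a nuclear subunit present in all tissues (chr9:57521232-57532426, plus strand), measured 24.6, 26.1 and 26.1 CPM in the Pax7-CreERT libraries, against 18.6, 22.9 and 19.2 CPM in the control libraries. The groups did not overlap, and the log2 fold change was 0.33 (SE 0.15, unadjusted p = 0.0524 and adjusted p = 0.896 in limma). Cox5b, its partner in the complex, measured 9.25, 7.86 and 9.16 CPM in the Pax7-CreERT libraries, against 10.4, 9.43 and 4.19 CPM in the control libraries. Its groups overlapped, with control 1 highest and control 3 lowest.

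Cox4i1, the common isoform of subunit 4 (chr8:120668225-120674209, plus strand), measured 32.8, 31.9 and 33.4 CPM in the Pax7-CreERT libraries, against 31.3, 28.3 and 30.6 CPM in the control libraries. The groups did not overlap, but the difference was small, with a log2 fold change of 0.12 (SE 0.13). Cox6b1, a subunit on the intermembrane side, measured 20.4, 26.2 and 15.9 CPM in the Pax7-CreERT libraries, against 22.2, 15.5 and 13.6 CPM in the control libraries (log2 fold change 0.27, SE 0.23). Cox7a2l, a relative of subunit 7a that takes part in supercomplexes, measured 106, 99.5 and 99.7 CPM in the Pax7-CreERT libraries, against 125, 99.4 and 111 CPM in the control libraries. Its log2 fold change was -0.13 (SE 0.13).

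Subunits 4, 6a, 7a and 8 each have an isoform that is used in particular tissues, and the ubiquitous isoform was the higher of each pair in all 6 libraries, per kb of transcript. Cox8b, the muscle isoform of subunit 8 (chr7:140898942-140900446, minus strand), measured 7.25, 4.12 and 4.27 CPM in the Pax7-CreERT libraries, against 2.17, 3.77 and 3.45 CPM in the control libraries. The groups did not overlap, and the log2 fold change of 0.57 ± 0.28 (SE; limma adjusted p = 0.896) was the highest of the 101 genes. Cox8b made up 14.0%, 5.88% and 8.12% of the Cox8a and Cox8b levels per kb in the Pax7-CreERT libraries, against 4.92%, 7.28% and 5.49% in the control libraries, so these shares overlapped. Cox8a averaged 80.9 ± 17.5 CPM in Pax7-CreERT and 76.1 ± 13.5 CPM in control libraries.

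Cox6a2, the muscle isoform of subunit 6a (chr7:128205435-128206366, minus strand), measured 2.42, 1.05 and 1.83 CPM in the Pax7-CreERT libraries, against 0.836, 2.16 and 0.493 CPM in the control libraries. These values rested on 9 to 23 reads in Pax7-CreERT and 2 to 16 reads in control libraries, and the groups overlapped (log2 fold change 0.40, SE 0.35). Its share with Cox6a1 per kb was 8.85%, 2.88% and 6.07% in the Pax7-CreERT libraries, against 2.72%, 6.87% and 1.92% in the control libraries. Cox7a1, the muscle isoform of subunit 7a, had 7, 1 and 0 reads in the Pax7-CreERT libraries, against 2, 0 and 0 reads in the control libraries, which is too few to compare. The ubiquitous partners overlapped between genotypes, with Cox6a1 at 24.8 ± 4.49 CPM in Pax7-CreERT and 23.6 ± 2.09 CPM in control libraries, and Cox7a2 at 7.39 ± 1.47 and 6.73 ± 0.825 CPM in the same order. Pax7-CreERT 1 was the highest library for all of these muscle isoforms. Cox4i2, an isoform of subunit 4 known from lung, ran differently, at 27.6%, 34.6% and 33.6% of the subunit 4 levels per kb in the Pax7-CreERT libraries, against 31.8%, 32.3% and 38.3% in the control libraries, with Pax7-CreERT 1 lowest.

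Marker genes of mature muscle fibres, like the muscle isoforms, had higher means in the Pax7-CreERT libraries. All 16 of 16 listed fibre markers, such as Ckm and Ttn, were in the table with none at 0 in any library, and all 16 had the higher mean there, with 0 passing at an adjusted p under 0.05. Their summed level was 3032, 2126 and 2166 CPM in the Pax7-CreERT libraries, against 1510, 1733 and 1031 CPM in the control libraries, with Pax7-CreERT 1 highest. Over all genes tested, 68.0% had a log2 fold change above 0. Among other markers, the Pax7-CreERT mean was higher for 7 of 7 of smooth muscle and pericytes and 0 of 8 erythroid ones. It was higher for 3 of 4 endothelial, 3 of 5 satellite cell and 3 of 4 macrophage markers. The same held for 2 of 4 fibro-adipogenic progenitor, 0 of 3 neutrophil and 0 of 3 fat markers. The part of fibre RNA in the values of Cox8b, Cox6a2 and the other genes was not tested. Of 5 listed markers of fat, where Cox7a1 and Cox8b are also expressed in mice, 3 were in the table, and their summed level was 7.25 to 12.4 CPM in Pax7-CreERT and 10.5 to 27.9 CPM in control libraries. The 3 were Adipoq, Plin1 and Cidec. The brown fat markers Ucp1 and Cidea were absent, so this sum does not read brown fat.

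**Figure D3:**
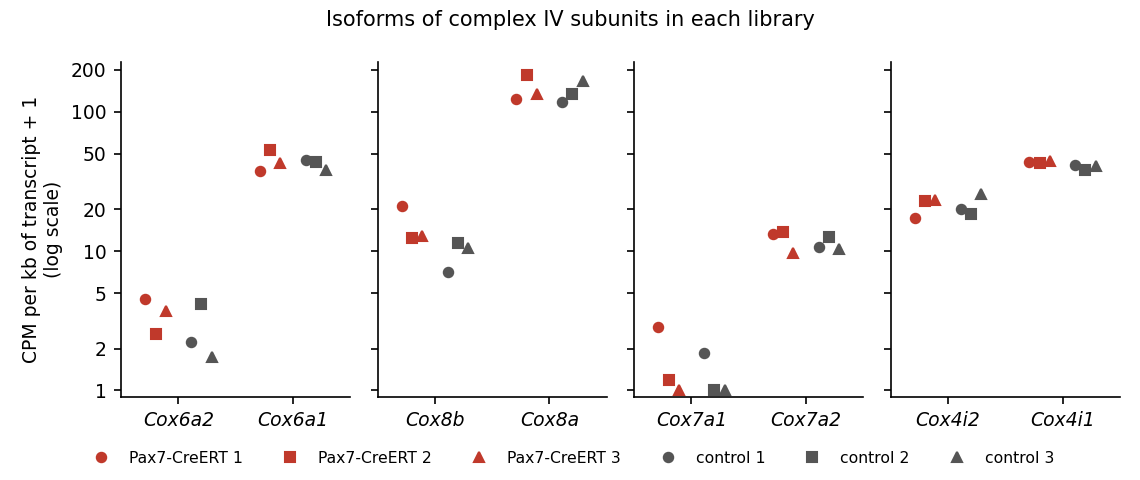
Level of isoform pairs of complex IV subunits in each library, as CPM per kb of transcript plus 1, on a log scale. Each point is 1 library, Pax7-CreERT on the left and control on the right, with the tissue-specific isoform first in each panel. Cox6a2, Cox8b, Cox7a1 and Cox4i2 lie below their ubiquitous partners in all 6 libraries, and Pax7-CreERT 1 is the highest library for Cox6a2, Cox8b and Cox7a1.

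Complex V makes ATP from the proton gradient. Of its 16 genes, 15 were tested, 10 had a log2 fold change above 0, the median was 0.11, and 0 passed. Atp5a1, the alpha subunit (chr18:77773768-77782868, plus strand), measured 140, 143 and 117 CPM in the Pax7-CreERT libraries, against 123, 109 and 99.7 CPM in the control libraries. The lowest Pax7-CreERT library lay below the highest control, and the log2 fold change was 0.27 ± 0.14 (SE; limma adjusted p = 0.896). Its catalytic partner Atp5b, the beta subunit (chr10:128083307-128090388, plus strand), measured 195, 195 and 176 CPM in the Pax7-CreERT libraries, against 218, 170 and 206 CPM in the control libraries. Alpha and beta subunits, which occur in equal number in the enzyme, thus had log2 fold changes of opposite sign (-0.06 for Atp5b, SE 0.14), neither of them past the test.

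Atp5c1, the gamma subunit of the central stalk, measured 31.1, 32.7 and 26.1 CPM in the Pax7-CreERT libraries, against 28.4, 26.7 and 20.97 CPM in the control libraries (log2 fold change 0.24, SE 0.17). Atp5pb, subunit b of the peripheral stalk (chr3:105942698-105959263, minus strand), averaged 26.9 ± 1.76 CPM in Pax7-CreERT and 23.9 ± 0.833 CPM in control libraries, and its groups did not overlap (log2 fold change 0.16, SE 0.14). The genes Atp5g1, Atp5g2 and Atp5g3 encode the same mature subunit c. Their means were 3.76 ± 0.475, 7.06 ± 0.522 and 6.78 ± 0.899 CPM in Pax7-CreERT libraries, against 3.37 ± 2.13, 7.46 ± 1.44 and 6.33 ± 2.05 CPM in control libraries, each within the spread. Atp5mpl, a small proteolipid of the enzyme, measured 4.10, 1.57 and 1.63 CPM in the Pax7-CreERT libraries, against 5.68, 4.18 and 0.987 CPM in the control libraries. The value of control 3 rests on 4 reads, and without that library Atp5mpl was the 1 member lower at an unadjusted p under 0.05 in limma.

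Assembly factors help to build the complexes and are not part of them. Of 20 such genes, 19 were tested, 13 had a log2 fold change above 0, the median was 0.11, and for 0 of them did the groups separate in CPM. After TMM scaling the groups separated for Cox18, with the Pax7-CreERT libraries below the control libraries. Sdhaf2, which is needed to attach flavin to Sdha, measured 35.01, 43.7 and 38.9 CPM in the Pax7-CreERT libraries, against 38.1, 39.1 and 38.2 CPM in the control libraries. Cox18, which inserts a mitochondrially encoded subunit of complex IV into the membrane, measured 3.15, 2.70 and 3.05 CPM in the Pax7-CreERT libraries, against 4.01, 3.10 and 5.18 CPM in the control libraries (log2 fold change -0.34, SE 0.24). Cox19, a factor of copper supply to complex IV, averaged 6.23 ± 2.04 CPM in Pax7-CreERT and 7.46 ± 0.277 CPM in control libraries. Ndufaf3, an assembly factor of complex I, averaged 7.199 ± 0.651 and 5.43 ± 1.98 CPM in the same order and had the highest log2 fold change of the group, 0.40 (SE 0.26).

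The 6 genes under the filter were Atp5k, Cox6b2, Cox7a1, Ndufaf6, Ndufb1 and Ndufc1, with 0 to 15 reads in a library. Atp5k, subunit e of complex V, had 11, 12 and 7 reads in the Pax7-CreERT libraries, against 5, 1 and 2 reads in the control libraries, or 1.16, 0.899 and 1.42 CPM against 0.836, 0.135 and 0.493 CPM. Its groups did not overlap, but it has no test here. The Ndufb1 row and Ndufc1, a small subunit of complex I, had 5 to 8 and 9 to 12 reads in Pax7-CreERT libraries, against 3 to 15 and 1 to 10 reads in control libraries. Cox6b2, an isoform known from testis, had 4 to 6 and 0 to 8 reads, and the complex I assembly factor Ndufaf6 had 1 to 6 and 1 to 3 reads, Pax7-CreERT and control.

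**Figure D4:**
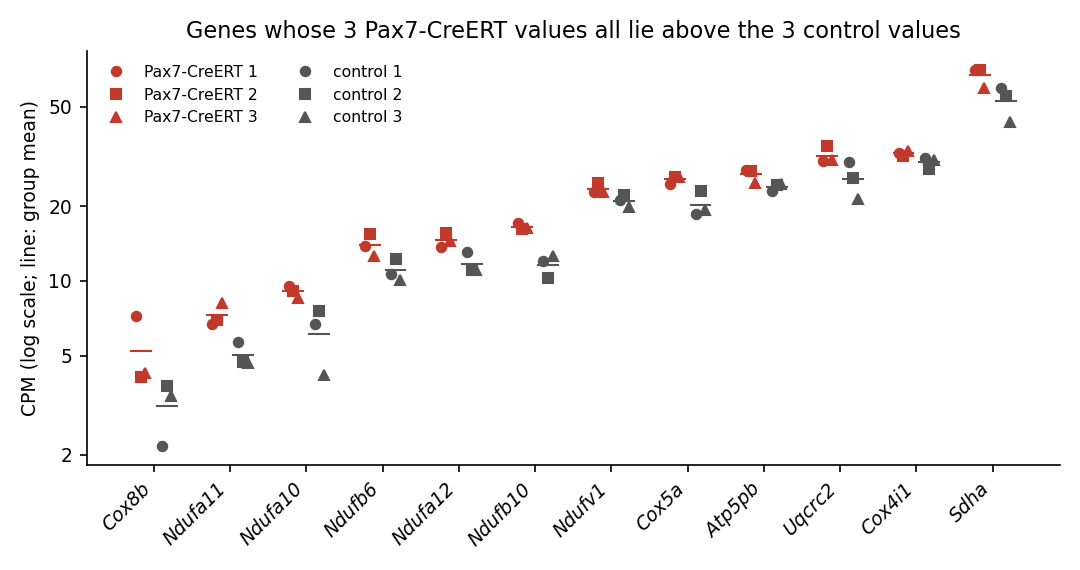
CPM, on a log scale, of 12 of the 13 tested genes whose 3 Pax7-CreERT libraries all lie above the 3 control libraries, in order of level, with lines at the group means. Each point is 1 library. The gap between the groups is clear for Ndufb10 (16.1 against 12.6 CPM in the nearest libraries) and narrow for Sdha (59.6 against 59.5 CPM).

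The members as a whole summed to 2204, 2401 and 2159 CPM in the Pax7-CreERT libraries, against 2226, 2063 and 2097 CPM in the control libraries, so the sums overlapped. Complex I summed to 690, 786 and 701 CPM in the Pax7-CreERT libraries, against 705, 681 and 678 CPM in the control libraries. The sums of complex II were 199, 194 and 185 CPM in the Pax7-CreERT libraries, against 182, 154 and 167 CPM in the control libraries, and did not overlap, a result in which Sdha and Sdhc hold most of the reads. These sums are not scaled by the TMM factors, which would bring the genotypes closer. The factors were 1.049, 1.041 and 1.013 in the Pax7-CreERT libraries, against 0.998, 0.988 and 0.917 in the control libraries. Complex III summed to 214, 223 and 202 CPM against 209, 201 and 187 CPM, complex IV to 344, 386 and 337 CPM against 353, 328 and 352 CPM, and complex V to 524, 538 and 478 CPM against 526, 455 and 477 CPM, each Pax7-CreERT against control and each overlapping.

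Each library was also placed by the median, over genes, of log2(CPM + 1) after the mean of the 6 libraries was taken off each gene. Over the 101 genes this position was 0.03, 0.12 and -0.0022 in the Pax7-CreERT libraries, against 0.04, -0.04 and -0.16 in the control libraries. Over all 14763 genes it was 0.06, 0.07 and 0.02 in the Pax7-CreERT libraries, against 0.0036, -0.0053 and -0.12 in the control libraries. Control 3 was the lowest library for 42 of the 101 genes, and Pax7-CreERT 2 was the highest for 34. For all genes, control 3 was the lowest for 5883 of 14763. The position of complex II was 0.19, 0.11 and 0.07 in the Pax7-CreERT libraries, against 0.02, -0.11 and -0.20 in the control libraries, so that the genotypes did not overlap, as was also the case for the position of all 14763 genes. Complex V had its lowest position, -0.27, in control 3 and its highest, 0.16, in control 1.

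**Figure D5:**
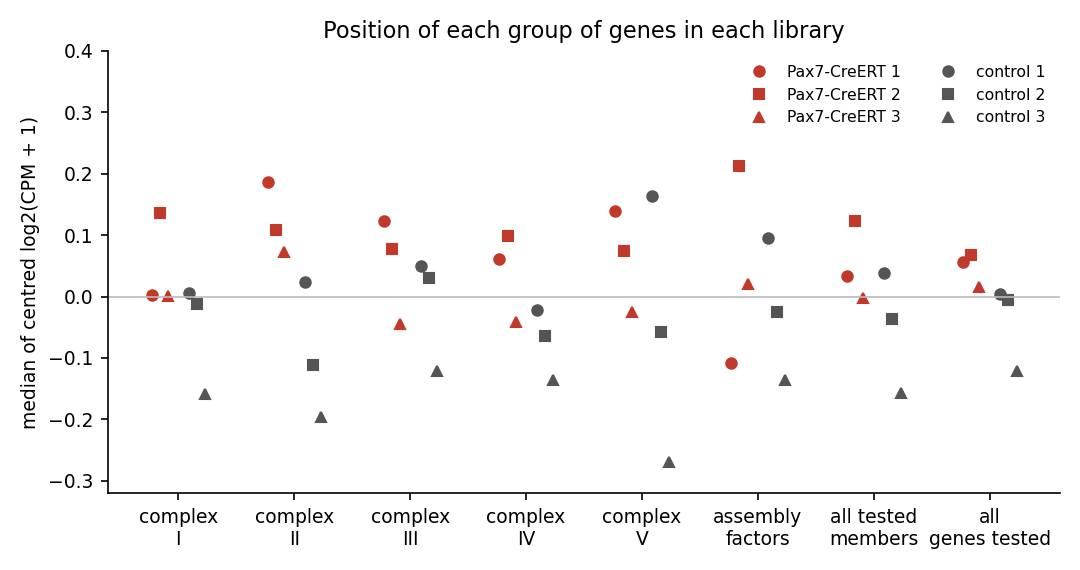
Median over the genes of a group of log2(CPM + 1), centred on each gene's mean over the 6 libraries, for each library. Pax7-CreERT libraries are on the left of each group and control libraries on the right. Control 3 is the lowest library in every group shown, all genes tested included, and in complex II all 3 Pax7-CreERT libraries (0.07 to 0.19) lie above the control libraries (-0.20 to 0.02).

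The spread of these values differed with the level of the gene. For the 20 tested genes under 5 CPM, the median coefficient of variation within a genotype was 37.5%, where counting alone gives 27.6%. For the 44 genes at 5 to 20 CPM it was 18.5%, with 14.4% from counting, and for the 37 genes above 20 CPM it was 12.7%, with 6.74% from counting. The median SE of a log2 fold change fell with level, at 0.31, 0.21 and 0.15 over the same classes. The median fold change was much the same in each, at 0.10, 0.10 and 0.08.

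Promoters of these genes are known to carry sites of NRF1 and of ETS factors such as GABP, which regulate nuclear genes of the mitochondria. The 250 bases before the start were read from RefSeq windows (GRCm38.p6) for the 85 genes with a window, and searched on both strands for GCGCANGCG (NRF1) and CCGGAAG (ETS). NRF1 letters were found in 15 of the 85 windows (17.6%), ETS letters in 17 (20%) and either in 28 (32.9%). Among the 11628 tested genes with a window the shares were 10.3%, 12.4% and 21.1%, and among all 27025 windows 5.33%, 7.05% and 11.6%. By group, either motif was present in 8 of 32 windows of complex I, 2 of 3 of complex II, 2 of 5 of complex III, 2 of 13 of complex IV, 5 of 14 of complex V and 8 of 17 of assembly factors.

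The windows of 5 genes are printed as examples with and without the motifs. They do not represent the 85 windows, of which 28 held either motif. Among unprinted genes without overlap, Ndufa10, Ndufa12, Ndufv1, Cox5a and Atp5pb had 0 matches and Ndufb6 had 1 ETS match. Capitals mark the letters of a motif on either strand, each window is given 5′ to 3′ on the strand of its gene, and the last base lies next to the RefSeq start. Sdha has 3 NRF1 matches, at chr13:74350241-74350490 on the minus strand. Ndufa11 has 2, at chr17:56717512-56717761 on the plus strand, which are one palindromic place read on both strands. Cox6a1, the ubiquitous isoform of subunit 6a, has 3 NRF1 matches, of which 2 are one palindromic place read on both strands, and 1 ETS match at chr5:115348959-115349208 on the minus strand. Ndufb10 at chr17:24724424-24724673 and Cox8b at chr7:140900447-140900696, both on the minus strand, have 0.
Sdha: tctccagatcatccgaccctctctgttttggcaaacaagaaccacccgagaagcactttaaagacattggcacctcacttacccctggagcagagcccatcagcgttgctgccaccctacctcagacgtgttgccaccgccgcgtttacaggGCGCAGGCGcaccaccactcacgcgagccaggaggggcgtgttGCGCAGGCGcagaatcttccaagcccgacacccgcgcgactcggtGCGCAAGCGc
Ndufa11: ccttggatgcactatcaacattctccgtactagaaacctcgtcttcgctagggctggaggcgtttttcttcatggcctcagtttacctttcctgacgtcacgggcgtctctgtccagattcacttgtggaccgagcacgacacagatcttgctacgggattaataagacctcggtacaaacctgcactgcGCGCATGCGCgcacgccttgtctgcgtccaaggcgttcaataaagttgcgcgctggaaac
Cox6a1: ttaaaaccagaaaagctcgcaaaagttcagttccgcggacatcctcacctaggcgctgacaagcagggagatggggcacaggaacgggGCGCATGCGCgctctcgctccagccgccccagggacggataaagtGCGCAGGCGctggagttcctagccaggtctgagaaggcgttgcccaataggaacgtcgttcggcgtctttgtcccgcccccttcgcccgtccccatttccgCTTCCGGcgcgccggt
Ndufb10: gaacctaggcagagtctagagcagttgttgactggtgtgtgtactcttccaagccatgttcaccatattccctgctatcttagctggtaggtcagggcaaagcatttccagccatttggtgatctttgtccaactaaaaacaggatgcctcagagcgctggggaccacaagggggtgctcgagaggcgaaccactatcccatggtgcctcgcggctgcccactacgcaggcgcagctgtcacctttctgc
Cox8b: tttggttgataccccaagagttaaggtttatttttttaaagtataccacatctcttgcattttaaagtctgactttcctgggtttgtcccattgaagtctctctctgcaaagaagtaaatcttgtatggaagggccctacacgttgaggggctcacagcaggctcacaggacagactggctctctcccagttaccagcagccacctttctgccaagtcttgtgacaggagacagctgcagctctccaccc

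Log2 fold changes of these 5 genes between genotypes are set beside their windows here. Sdha and Ndufa11, with matches, had log2 fold changes of 0.34 and 0.46, Ndufb10 and Cox8b, without, 0.47 and 0.57, and Cox6a1, with matches of both kinds, 0.06. A match is a stretch of letters, and binding of a factor was not measured.

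Other genes of the pathway were read from lists of regulators, further assembly factors, the citric acid cycle, and carriers and import. Of 65 such genes tested, 0 passed, 51 (78.5%) had a log2 fold change above 0 and the median was 0.13. Across the whole table, 68.0% of the genes tested were above 0, with a median of 0.09. With TMM factors that share was 49.9%, and values with these factors are not given here for the lists. Groups without overlap were found for 5 of the 65 above (7.69%, against 8.69% of all genes) and 2 below (3.08%, against 2.28%). All 13 genes of the citric acid cycle, which supplies NADH and succinate, had values above 0 (median 0.22), though the groups separated only for Idh3b, a subunit of NAD-dependent isocitrate dehydrogenase, at 28.4, 34.2 and 30.7 CPM in the Pax7-CreERT libraries, against 27.7, 26.0 and 22.0 CPM in the control libraries. Among 18 regulators, Pprc1, a coactivator of the PGC-1 family, measured 51.9, 36.5 and 36.0 CPM in the Pax7-CreERT libraries, against 30.9, 33.1 and 19.5 CPM in the control libraries (log2 fold change 0.57, adjusted p = 0.891). Nrf1 averaged 63.4 ± 5.24 CPM in Pax7-CreERT and 58.9 CPM in control libraries, and Tfam, a factor that packages and transcribes mitochondrial DNA, 27.9 ± 1.52 and 25.2 CPM in the same order. Mterf1a, a transcription termination factor of mitochondria, was the 1 regulator with all Pax7-CreERT libraries below the controls, at 4.21, 5.24 and 4.88 CPM against 7.36, 5.39 and 6.41 CPM.

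Of 23 further assembly factors tested, Acad9, an acyl-CoA dehydrogenase that also helps to assemble complex I, measured 13.4, 15.9 and 14.5 CPM in the Pax7-CreERT libraries, against 12.0, 8.62 and 9.13 CPM in the control libraries (log2 fold change 0.52). Coa7, an assembly factor of complex IV, ran the other way, with 12.0, 15.4 and 14.9 CPM in the Pax7-CreERT libraries, against 21.4, 19.4 and 18.01 CPM in the control libraries (log2 fold change -0.45). The groups did not overlap in either gene, and neither passed the adjustment. Atpif1, the inhibitor protein of complex V, measured 35.3, 40.3 and 47.0 CPM in the Pax7-CreERT libraries, against 37.4, 28.3 and 74.5 CPM in the control libraries, highest in control 3.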

How the data were processed

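Libraries were made with a strand-specific kit from Trizol-extracted RNA of muscle mononuclear cells, per the labels' protocols. The authors deposited CPM values with 0.0001 added to each, as read from the values: every library sums to 1000000 plus those constants. The submitters' processing notes name Partek, DESeq2 and mm10 without saying what each did, and the aligner, counter and annotation are not given in the sources used here. Genotype was taken from the labels, with 3 libraries each.

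Reads were estimated from the smallest step between low values. Only 92.9% to 93.9% of low values were whole reads within 0.05 read, where 95% was required, so no count test was run. Counting errors cover read sampling only, while intervals of fold changes come from limma and rest on the spread between libraries. Genes that reached 1 CPM in 3 or more of the 6 libraries were compared with limma 3.58.1 (R 4.3.3) on log2(CPM + 1), with a mean-variance trend. The constant of 1 shrinks differences of genes near 1 CPM. The Benjamini-Hochberg adjustment ran over all 14763 genes. Alternatives were no filter, TMM factors, quantile normalization, a constant of 0.25, array weights, and libraries left out.

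Named genes were the core subunits, complex IV isoforms and catalytic or ring subunits of complex V, the 5 genes with the smallest p in each direction, the most and least abundant of each complex, and those under the filter. Others, such as those without overlap and the copies, were chosen after their values were seen. Of the genes that the rule names, 1 is not reported here. The members and lists were chosen with earlier results of these data known. Transcript lengths and shared words came from GENCODE release M21 and promoters from RefSeq, both of the build of the files. Of the 107 members, 106 matched a GENCODE gene (3 of these by position) and 85 a promoter window, of which 67 end next to the RefSeq gene start. For 87 of the 107 members the end in the table lay 1 base past that of RefSeq, and 1 was subtracted from every end.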

Additional observations from a re-analysis of the deposited data

How the results depend on the processing

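No paired analysis was possible because the labels give the libraries no shared replicate numbers, litters or batches. The count of members that pass, 0, held in all 12 alternatives, where the lowest adjusted p of a member was 0.446 (Ndufb10, with array weights). That of all genes, 1, was 2 without the filter on low values and 2 with Pax7-CreERT 1 and control 3 both left out, and ran from 0 to 1 when single libraries were left out.

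The scaling moved the medians. With TMM factors the median log2 fold change was 0.16 for complex II, -0.063 for complex III, 0.0056 for complex IV and -0.0014 for all members. With quantile normalization it was -0.027 for complex I, 0.0068 for complex IV and -0.0025 for all members. The median of complex III ran from -0.0092 to 0.13 when single libraries were left out. At an unadjusted p under 0.05, members higher in Pax7-CreERT numbered 0 without Pax7-CreERT 1, 1 without Pax7-CreERT 2, 3 without Pax7-CreERT 3, 7 without control 1, 5 without control 2 and 1 without control 3, against 4 with all libraries. All genes higher at that p numbered 326, 422, 690, 832, 689 and 730 in the same order, against 676. With TMM factors or quantile normalization Ndufb10 was the 1 member among them (0.990% of the members in each, against 2.44% and 2.48% of all genes). With array weights Ndufa11 and Ndufb10 were the members among them (1.98%, against 6.01% of all genes). Ndufb10 was not among them without Pax7-CreERT 1 or without control 2, and Sdha was among them without Pax7-CreERT 3 or control 1 but not without any other single library.

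Of 44 named members with a test, 27 kept the sign of their log2 fold change in all 12 alternatives, and 17, none of which passed in any, changed it in 1 or more. With TMM factors the changed values were Ndufs8 -0.054, Sdhd -0.080, Cyc1 -0.084, Cox6a1 -0.034, Cox8a -0.016, Uqcrb -0.063 and Sdhaf2 -0.074. With quantile normalization they were Ndufv2 -0.0085, Ndufs8 -0.056, Sdhd -0.075, Cyc1 -0.089, Cox6a1 -0.033, Uqcrb -0.037 and Sdhaf2 -0.055. With array weights they were Cox4i2 0.065, Cox5b -0.030, Atp5b 0.0036, Atp5g2 0.043 and Uqcrb -0.00078. With Pax7-CreERT 1 and control 3 both left out they were Cyc1 -0.053, Cycs -0.017, Cox4i2 0.25, Cox5b -0.20, Cox7a2 -0.011, Atp5g2 0.066 and Atp5g3 -0.055. When single libraries were left out, the values ran over these ranges: Atp5b -0.17 to 0.011, Atp5g1 -0.18 to 0.60, Atp5g2 -0.21 to 0.027, Cox4i2 -0.11 to 0.12, Cox5b -0.16 to 0.40, Cox6a1 -0.074 to 0.17, Cox8a -0.088 to 0.21, Cyc1 -0.086 to 0.13, Cycs -0.021 to 0.31, Ndufs8 -0.028 to 0.11, Sdhaf2 -0.059 to 0.098, Sdhd -0.11 to 0.12, Uqcrb -0.0092 to 0.089 and Uqcrc1 -0.24 to 0.097. Apart from the scaling and the libraries left out, the cause of these changes was not tested. Under 5 CPM, the median SE of a log2 fold change was 0.31, which limits what can be seen for such genes.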
